A study of Mus musculus with 12 samples.

Results

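The Cyp2a and Cyp2b genes encode cytochrome P450 enzymes of the liver that hydroxylate steroids, coumarin, nicotine and many drugs. Their levels were compared in WT and *Pctp*-/- livers on chow and on a methionine and choline-deficient (MCD) diet. The members were taken by symbol, and all 7, *Cyp2a4*, *Cyp2a5*, *Cyp2a12*, *Cyp2a22*, *Cyp2b9*, *Cyp2b10* and *Cyp2b13*, were found among the 35275 genes of the expression table. All 7 had a mean of at least 0.5 FPKM over all libraries, the minimum for testing, which 12466 genes reached. *Cyp2a4* and *Cyp2b13* were under 0.5 FPKM in every chow liver, so MCD values alone brought them to the minimum. Their tests on chow compare values near 0, and the filter favoured a rise with the diet for them. FPKM is the number of fragments mapped to a gene, scaled by the length of its transcript and by the sequencing depth of the library.

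Whole livers of 12 male mice were sequenced, 3 in each of 4 groups (WT on chow, *Pctp*-/- on chow, WT on MCD and *Pctp*-/- on MCD). *Pctp*-/- mice lack phosphatidylcholine transfer protein (PC-TP) in every tissue, and the labels give each library as a separate biological replicate. The age of the mice and the time on the diet are not given in the sources used here. *Pctp* itself was at 1.21 to 2.65 FPKM in WT and 0.330 to 0.566 FPKM in *Pctp*-/- livers on chow, and at 3.61 to 7.90 against 0.156 to 0.329 FPKM on MCD, so the genotypes did not overlap on either diet.

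The Cyp2a and Cyp2b families include liver enzymes that foreign compounds induce. *Cyp2b10* is the classical target gene of the constitutive androstane receptor (CAR, gene *Nr1i3*), which phenobarbital activates, and the pregnane X receptor (PXR, gene *Nr1i2*) shares many of its targets. *Cyp2a4*, *Cyp2a22*, *Cyp2b9* and *Cyp2b13* are known for higher expression in female than in male mouse liver, under the control of the pattern of growth hormone secretion. *Cyp2a5*, the coumarin hydroxylase, and *Cyp2a12*, a steroid hydroxylase, are expressed in the livers of both sexes.

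The 7 genes lie in a single cluster on chromosome 7, from 25897620 to 27037375 in GRCm38, a span of 1139.76 kb that holds 30 annotated genes, 15 of them protein coding. *Cyp2b10*, *Cyp2b13*, *Cyp2b9* and *Cyp2a4* stand at one end of it, and *Cyp2a5*, *Cyp2a22* and *Cyp2a12* at the other. *Cyp2a22* is the only member on the minus strand. The close relatives *Cyp2b19* and *Cyp2b23* lie between them and were hardly seen in liver, with a mean of 0.0236 FPKM for *Cyp2b19* and 0 in every library for *Cyp2b23*.

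**Figure D1:**
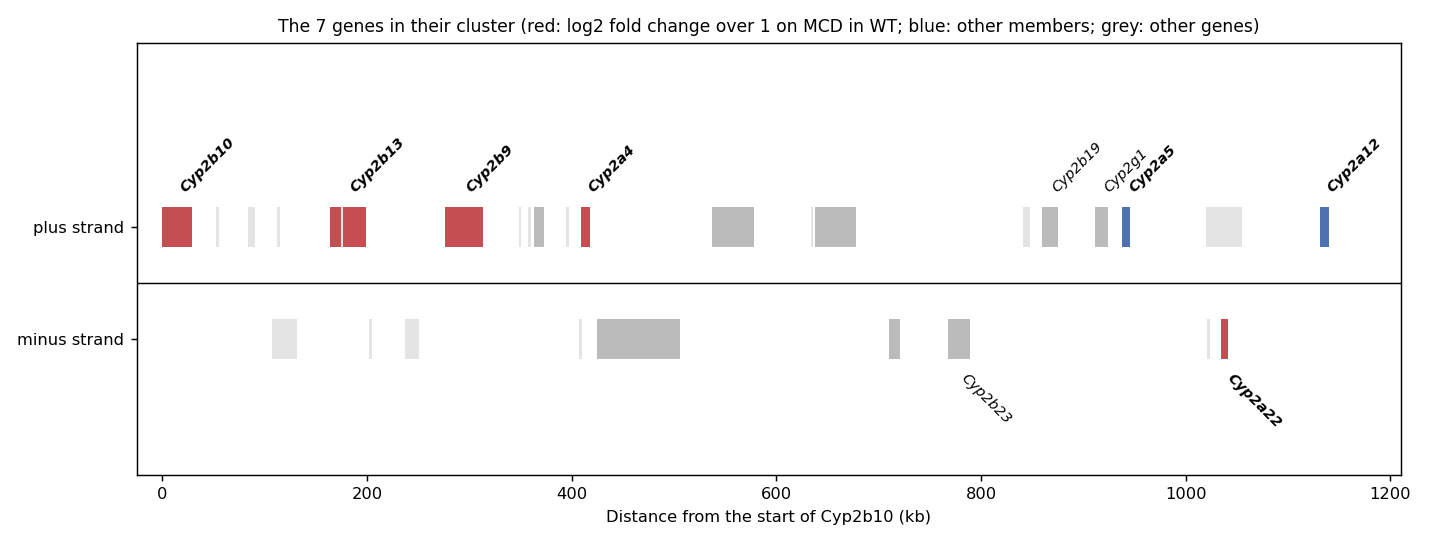
Gene positions along the cluster in kb from the start of *Cyp2b10*, with plus-strand genes above and minus-strand genes below the line. Grey boxes are the other annotated genes, light grey where they do not code for protein, and very short genes are widened to be visible. Red members had a log2 fold change over 1 on MCD in WT livers and blue members did not; the red and blue genes are interspersed at the *Cyp2a5* end, where *Cyp2a22* (red) lies between *Cyp2a5* and *Cyp2a12* (blue).

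The genes form close pairs, and the sequence before their starts is printed because members that responded very differently are nearly alike there. In the 250 bases before the RefSeq transcription start (GRCm38.p6), *Cyp2a4* and *Cyp2a5* were 98.4% identical and differed at 4 positions, although *Cyp2a4* was near 0 and *Cyp2a5* over 100 FPKM in chow livers. The differences, *Cyp2a4* first and counted from 1 at the 5′ end of its window, were C19T, T131C, G161A and G205T. The sequences below stop at the base before the earlier of the RefSeq and GENCODE starts, and their capitals mark the bases that differ within the pair.
Cyp2a4 (chr7:26306942-26307168, plus strand): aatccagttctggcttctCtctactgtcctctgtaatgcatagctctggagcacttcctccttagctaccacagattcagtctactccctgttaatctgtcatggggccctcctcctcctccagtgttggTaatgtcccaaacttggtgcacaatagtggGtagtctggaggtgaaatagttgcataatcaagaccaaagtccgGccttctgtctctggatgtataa
Cyp2a5 (chr7:26835089-26835304, plus strand): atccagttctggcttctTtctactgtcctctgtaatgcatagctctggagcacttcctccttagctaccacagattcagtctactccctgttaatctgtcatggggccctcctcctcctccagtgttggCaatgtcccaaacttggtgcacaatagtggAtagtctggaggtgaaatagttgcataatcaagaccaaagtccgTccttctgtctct

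*Cyp2b9* and *Cyp2b13*, which rose together on MCD, were 99.2% identical over their 250 bases, with the differences T48C and C104T (*Cyp2b9* first, counted from 1 at the 5′ end). Capitals again mark the bases that differ.
Cyp2b9 (chr7:26173159-26173408, plus strand): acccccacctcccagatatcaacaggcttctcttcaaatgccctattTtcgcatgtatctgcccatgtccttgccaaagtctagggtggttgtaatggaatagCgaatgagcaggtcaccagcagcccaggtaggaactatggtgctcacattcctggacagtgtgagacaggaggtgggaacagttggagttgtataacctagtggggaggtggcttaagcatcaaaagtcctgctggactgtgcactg
Cyp2b13 (chr7:26061245-26061494, plus strand): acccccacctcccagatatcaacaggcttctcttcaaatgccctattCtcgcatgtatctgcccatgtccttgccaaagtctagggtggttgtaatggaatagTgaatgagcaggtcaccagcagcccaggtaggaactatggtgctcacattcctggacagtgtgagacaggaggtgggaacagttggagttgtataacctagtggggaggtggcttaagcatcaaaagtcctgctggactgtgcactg

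*Cyp2b10*, the member that fell in *Pctp*-/- livers on MCD, shared 71.7% of the aligned bases with *Cyp2b9* and the same share with *Cyp2b13*. Capitals mark a match to the C/EBP motif TTGCNNAA.
Cyp2b10 (chr7:25897408-25897619, plus strand): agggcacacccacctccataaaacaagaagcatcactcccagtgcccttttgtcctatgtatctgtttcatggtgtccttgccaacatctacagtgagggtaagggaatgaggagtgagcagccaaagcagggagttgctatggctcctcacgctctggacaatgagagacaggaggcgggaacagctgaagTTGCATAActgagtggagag

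The windows of *Cyp2a12* and *Cyp2a22* were 88.8% identical over their aligned bases. Matches on either strand to 7 motifs were counted in the 250 bases of the members and of 32851 RefSeq promoters. TTGCNNAA was found in 5 of 7 members (*Cyp2a4*, *Cyp2a5*, *Cyp2b9*, *Cyp2b10* and *Cyp2b13*) and in 9.56% of all promoters. The letters TATAAA stood in the windows of the 4 Cyp2a genes, in 12.4% of all promoters, and AGGTCA, a nuclear receptor motif, in those of *Cyp2b9* and *Cyp2b13*, in 14.0% of all. GTTAAT, an HNF1 motif, occurred in *Cyp2a4* and *Cyp2a5* and in 6.43% of all. TTCNNNGAA (STAT), TGTTTAC or TGTTTGC (FOXA) and CAAAGTCCA (HNF4) matched none of the 7 windows and 7.02%, 7.29% and 0.384% of all promoters. Within each close pair, *Cyp2a4* and *Cyp2a5* and *Cyp2b9* and *Cyp2b13*, the same motifs were present.

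Likeness also extends to the transcripts, so the values of close paralogs can trade reads. The coding sequences were 98.5% identical for *Cyp2a4* and *Cyp2a5* (23 differences), 97.0% for *Cyp2a12* and *Cyp2a22* (45) and 92.7% for *Cyp2b9* and *Cyp2b13* (108). Of the 150-base stretches of each reference transcript, 94.2% (*Cyp2a5*) to 100% (*Cyp2b9* and *Cyp2b10*) occurred in no other annotated gene, and the libraries had 149 to 151 bases per read. Of 50-base stretches, the share in no other gene was 59.2% for *Cyp2a5*, 62.0% for *Cyp2a4*, 72.5% for *Cyp2a12*, 72.7% for *Cyp2b13*, 74.3% for *Cyp2a22*, 88.8% for *Cyp2b9* and 89.8% for *Cyp2b10*. *Cyp2a4* overlaps *Gm42375* and *Cyp2a22* overlaps *Cyp2a21-ps* on the opposite strand, and *Cyp2b13* overlaps *Rnf170-ps* on the same strand. For *Cyp2b13* the closest source of shared 50-base stretches was the neighbouring pseudogene *Gm45225* (13.8%), which is not among the genes of the table. How reads with several matches were assigned is not given in the sources used here, and such reads made up 4.07 to 4.84% of each chow library and 6.5 to 7.4% of each MCD library. Sums over pairs are given beside the single genes. A read moved within a pair still shifts a sum of FPKM where the transcripts differ in length, which was 1738 and 2013 bases for *Cyp2a4* and *Cyp2a5*, 1681 and 1796 for *Cyp2a12* and *Cyp2a22*, and 1876 and 1875 for *Cyp2b9* and *Cyp2b13*.

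The chow and MCD libraries also differed in sequencing. Uniquely mapped reads numbered between 30486576 and 55179468 per library. They made up 77.59 to 79.41% of the reads of each chow library and 85.66 to 87.55% of each MCD library. The error rate was 0.03% in every chow and 0.01% in every MCD library. Bases at Q30 made up 86.3 to 87.1% of each chow library and 93.5 to 94.6% of each MCD library, with a GC content of 49.8 to 51.2% and 48.4 to 49.2%. Diet and sequencing thus differed together in every comparison of the diets, and their parts cannot be told apart, least of all for small differences. The labelled tissue was checked with 6 hepatocyte markers, among them *Alb*, which summed to 41670 FPKM or more in every library. In whole liver, fewer cells of a type and less RNA per cell cannot be told apart.

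In WT livers on chow, *Cyp2a12* and *Cyp2a5* were the main members, *Cyp2b10* was present and the other 4 were near 0. *Cyp2a12* was at 339, 409 and 441 FPKM and *Cyp2a5* at 121, 229 and 277 FPKM in the 3 livers. *Cyp2b10* was at 33.6, 22.5 and 76.9 FPKM. The order *Cyp2a12*, *Cyp2a5*, *Cyp2b10* held in each of the 3 livers, with no overlap between neighbours. *Cyp2b9* (0.518 to 1.82 FPKM) and *Cyp2a22* (0.907 to 1.62 FPKM) overlapped, *Cyp2a4* was at 0.0979 to 0.218 FPKM, and *Cyp2b13* was at 0.0224 FPKM in replicate 1 and listed at 0 in the others. FPKM is per length, so these levels were set side by side, but reads shared between close paralogs limit the comparison of genes.

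**Figure D2:**
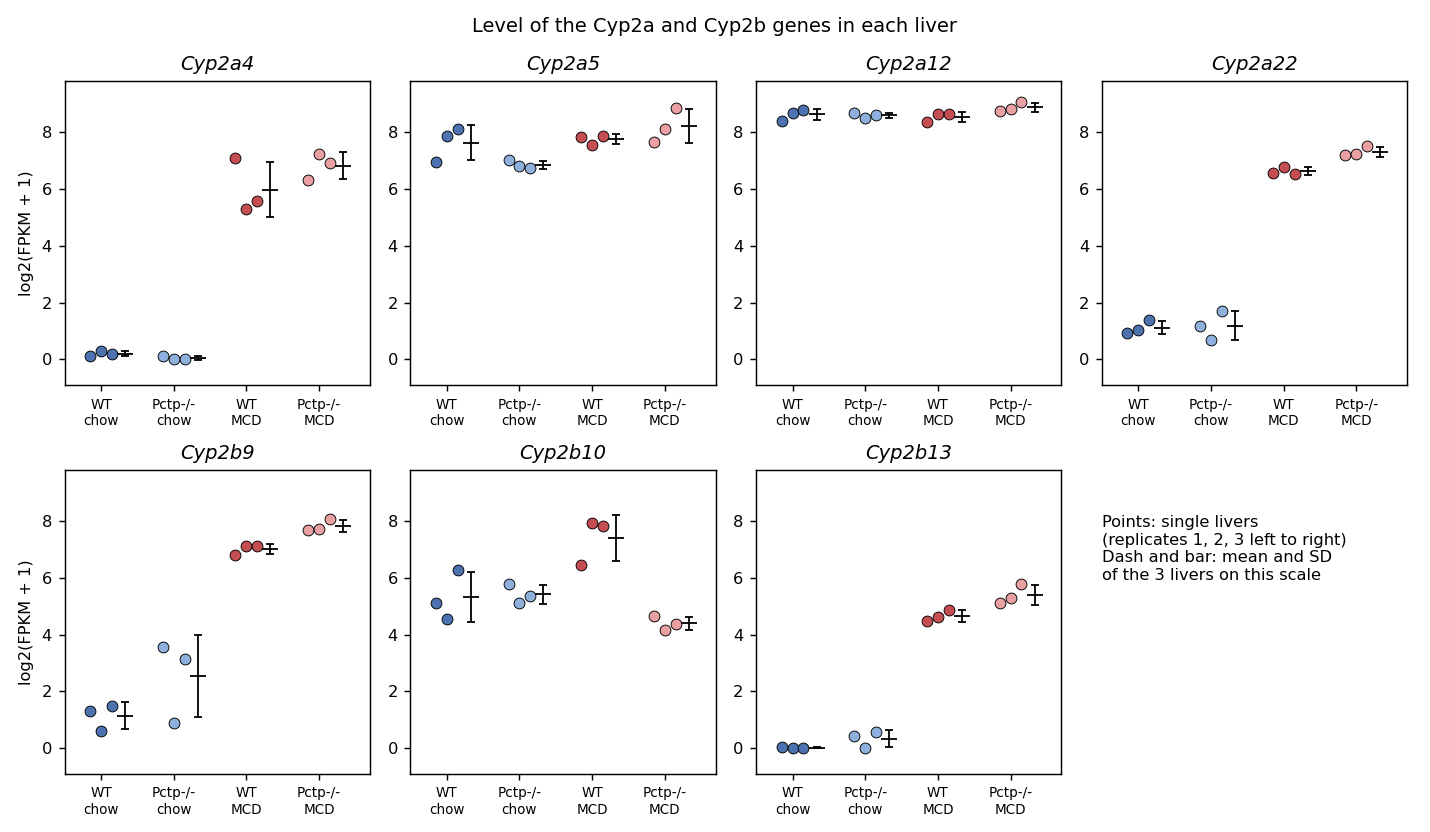
Level of each gene as log2(FPKM + 1) in each of the 12 livers, with the mean and SD of the 3 livers of a group beside the points. *Cyp2a4*, *Cyp2a22*, *Cyp2b9* and *Cyp2b13* sit near the bottom on chow and far above on MCD, *Cyp2a12* stays between 323 and 531 FPKM, and the 3 *Pctp*-/- livers on MCD have less *Cyp2b10* than any WT liver on MCD.

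On chow, no member passed the test between *Pctp*-/- and WT livers, where 0.136% of all genes tested did (limma, Benjamini-Hochberg adjusted p under 0.05). An unadjusted p under 0.05 was found for 2 of the 7, *Cyp2a5* and *Cyp2b9*. *Cyp2a5* was at 129, 111 and 106 FPKM in *Pctp*-/- livers against 121, 229 and 277 in WT, so that WT replicate 1 fell among the *Pctp*-/- values. Its log2 fold change was -0.78 (SE 0.30, limma adjusted p = 0.597). *Cyp2b9* was at 10.8, 0.854 and 7.89 FPKM in *Pctp*-/- livers, and its replicate 2 lay within the WT range of 0.518 to 1.82. The log2 fold change was 1.39 (SE 0.51, limma adjusted p = 0.553), the 8th largest rise of all genes tested. Without *Pctp*-/- replicate 2 it was 2.21 and passed (limma adjusted p = 0.00329).

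The other 5 members had log2 fold changes between -0.17 and 0.32 on chow. *Cyp2b10* was at 54.1, 33.6 and 40.2 FPKM in *Pctp*-/- livers (log2 fold change 0.10, SE 0.43), inside the WT range. *Cyp2a12* was at 406, 360 and 392 FPKM (-0.03, SE 0.12) and *Cyp2a22* at 1.25, 0.617 and 2.30 FPKM (0.07, SE 0.21). *Cyp2a4* and *Cyp2b13* were under 0.5 FPKM in all 6 chow livers. *Cyp2a4* was the single member whose groups did not overlap, at 0.0868 FPKM or 0 in *Pctp*-/- livers and from 0.0979 FPKM in WT, beside 10.6% of all genes tested. All of these *Cyp2a4* values are near 0, so the gap carries little weight. The median log2 fold change of the members was 0.07 on chow, and that of all genes 0.01.

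On MCD, *Cyp2b10* fell in *Pctp*-/- livers and was the only one of the 7 members to pass, where 0.818% of all genes tested did. It was at 87.2, 244 and 224 FPKM in WT and at 24.0, 17.0 and 19.5 FPKM in *Pctp*-/- livers. Every *Pctp*-/- liver was below every WT liver, and the mean was 20.1 ± 3.55 against 185 ± 85.4 FPKM (SD, n = 3), a ratio of 0.109. The log2 fold change was -3.02 (SE 0.43, limma adjusted p = 0.00738), the 2nd largest fall of all genes tested. It passed in each of 22 alternative fits, with log2 fold changes from -3.49 to -2.75 and adjusted p up to 0.0482.

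The female-predominant members lay on the other side. *Cyp2b9* was at 110, 136 and 139 FPKM in WT and at 205, 207 and 266 FPKM in *Pctp*-/- livers on MCD. *Cyp2b13* was at 21.1, 23.6 and 28.2 against 33.4, 38.1 and 53.7 FPKM, and *Cyp2a22* at 93.8, 110 and 90.5 against 145, 150 and 182 FPKM. For each of these 3 genes all *Pctp*-/- livers were above all WT livers, but none passed the test. The log2 fold changes were 0.81 (SE 0.51, limma adjusted p = 0.468), 0.74 (SE 0.18, limma adjusted p = 0.0877) and 0.69 (SE 0.21, limma adjusted p = 0.144). *Cyp2b13* alone of the 3 passed in an alternative, with quantile normalization (0.87, limma adjusted p = 0.0471). *Cyp2a4* was at 134, 37.9 and 46.5 FPKM in WT and 78.7, 149 and 120 FPKM in *Pctp*-/- livers. WT replicate 1 lay among the *Pctp*-/- values. The log2 fold change was 0.85 (SE 0.36, limma adjusted p = 0.274), and without that liver 1.40 (limma adjusted p = 0.0164).

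*Cyp2a12* and *Cyp2a5* were also somewhat higher in *Pctp*-/- livers on MCD without passing. *Cyp2a12* was at 323, 398 and 398 FPKM in WT and 431, 454 and 531 FPKM in *Pctp*-/- livers, which did not overlap (log2 fold change 0.34, SE 0.12, limma adjusted p = 0.208). *Cyp2a5* was at 226, 186 and 233 against 201, 276 and 460 FPKM and did overlap (0.46, SE 0.30, limma adjusted p = 0.484). In all, 5 of 7 members did not overlap between the genotypes on MCD, beside 26.6% of all genes tested, 4 of them higher and *Cyp2b10* lower in *Pctp*-/-. The median log2 fold change was 0.69 over the members and -0.09 over all genes.

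The hepatocyte marker sum was also higher in *Pctp*-/- livers on MCD. It was 55369 to 62430 FPKM in WT and 70758 to 76660 FPKM in *Pctp*-/- livers, a ratio of means of 1.24, while 0 of its 6 genes passed. *Alb* accounted for most of this gap, with means of 43899 FPKM in WT and 57218 FPKM in *Pctp*-/- livers, and *Apoa1* was slightly lower (-0.04). The ratio of means was 1.26 for *Cyp2a12*, 1.45 for *Cyp2a5*, 1.60 for *Cyp2a4*, 1.62 for *Cyp2a22*, 1.72 for *Cyp2b13* and 1.76 for *Cyp2b9*. The pericentral hepatocyte sum (5 genes, among them *Glul*) was 3104 to 5029 FPKM in WT and 5245 to 5491 FPKM in *Pctp*-/- livers on MCD. Most of it was *Cyp2e1*, with means of 3288 and 4475 FPKM. The leukocyte sum (6 genes) was 12.1 to 19.6 against 7.06 to 11.3 FPKM. Only 3 of these genes reached the minimum FPKM and 0 passed for the knockout, with a median log2 fold change of -0.13. The part of these shifts in the differences of the 7 genes was not tested.

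**Figure D3:**
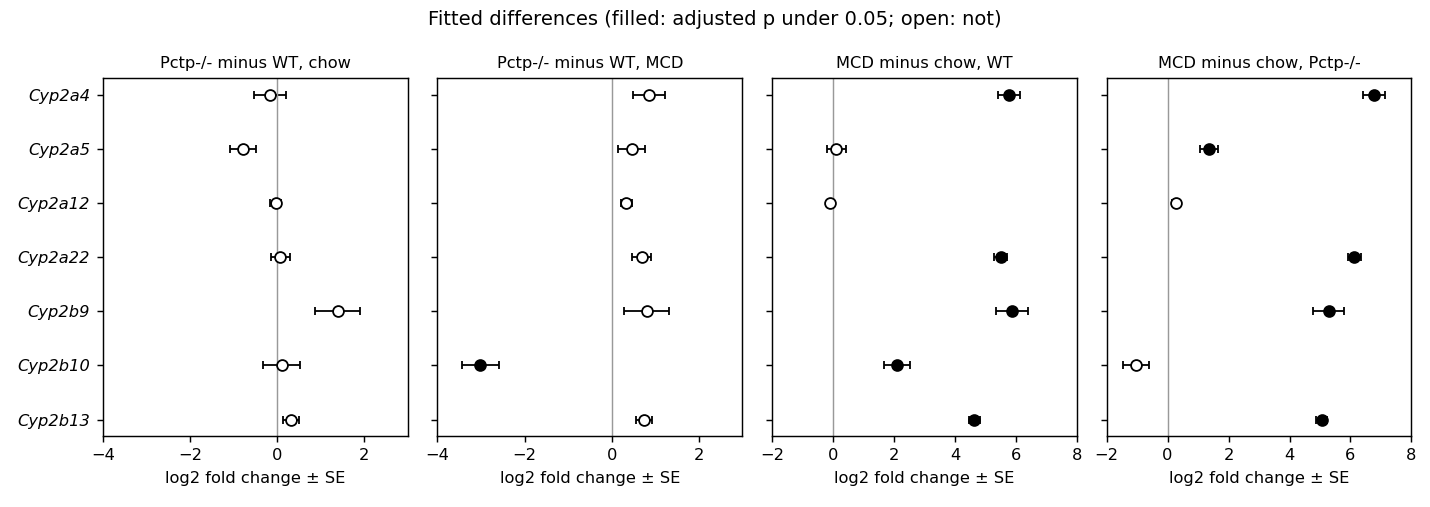
Log2 fold change with its SE for each member in the 4 comparisons, from the fit to log2(FPKM + 1) of all 12 livers. Filled points passed at an adjusted p under 0.05: *Cyp2b10* alone for the knockout on MCD (-3.02), none for the knockout on chow, and 5 members for the diet in each genotype.

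In WT livers 5 members were higher on MCD than on chow, where 57% of all genes tested passed in either direction and 34.5% rose. The largest rise was that of *Cyp2b9*, from 1.28 ± 0.679 to 129 ± 15.8 FPKM (SD, n = 3), with a log2 fold change of 5.87 (SE 0.51, limma adjusted p = 2.54e-06). *Cyp2a4* rose from 0.155 ± 0.0600 to 72.7 ± 53.0 FPKM (5.77, SE 0.36), *Cyp2a22* from 1.20 ± 0.374 to 98.0 ± 10.3 FPKM (5.50, SE 0.21) and *Cyp2b13* from 0.00747 ± 0.0129 to 24.3 ± 3.60 FPKM (4.64, SE 0.18). These 4 genes ranked 5th to 15th among the rises of all genes tested. *Cyp2b10* rose less, from 44.3 ± 28.8 to 185 ± 85.4 FPKM (2.09, SE 0.43, limma adjusted p = 0.00132). The log2(FPKM + 1) scale understates the rise of genes near 0 on chow.

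*Cyp2a5* and *Cyp2a12* did not pass in WT livers. *Cyp2a5* went from 209 ± 79.7 to 215 ± 25.6 FPKM (log2 fold change 0.11, SE 0.30) and *Cyp2a12* from 396 ± 52.4 to 373 ± 43.2 FPKM (-0.08, SE 0.12), and the diets overlapped for both. The other 5 members did not overlap between the diets, as was so for 63.7% of all genes tested. The median log2 fold change was 4.64 over the members, the value of *Cyp2b13* itself, and 0.11 over all genes. MCD values alone brought *Cyp2a4* and *Cyp2b13* to the minimum for testing, so the counts and the median are partly set by the filter. Markers of other cell types also differed between the diets. The summed macrophage markers (6 genes, with *Cd68* and *Gpnmb*) were at 31.7 to 78.8 FPKM in chow and 98.5 to 191 FPKM in MCD livers, the stellate cell markers (6) at 29.8 to 57.7 and 131 to 193 FPKM and the leukocyte markers (6) at 0.675 to 4.99 and 7.06 to 19.6 FPKM. Only 2 of the 6 stellate genes rose in each genotype, with medians of 0.58 in WT and 0.32 in *Pctp*-/- livers. The ratio of means was 1.34 and 1.00 for the endothelial sum and 1.41 and 0.95 for the cholangiocyte sum. The hepatocyte markers summed to 41670 to 47275 FPKM on chow and 55369 to 76660 FPKM on MCD, and *Alb*, the albumin gene, accounted for the higher sum, with means of 27788 and 43899 FPKM in WT livers. Of the 6, *Alb* rose and *Apoa1* (-0.45), *Serpina1a* (-1.36) and *Cps1* (-0.42) fell in WT livers, and 1 rose and 2 fell in *Pctp*-/- livers. The rise of *Alb* was lost without the filter on low values and with quantile normalization. Quantile normalization gives the same value to a gene of the same rank in every library, and the change of *Alb* was then 0. That alternative therefore cannot test the rise. The periportal hepatocyte markers (6) were lower on MCD, at 939 to 1026 against 1682 to 2868 FPKM in WT livers, a ratio of means of 0.441, and 0.531 in *Pctp*-/- livers. Their part in the differences between the diets was not tested.

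In *Pctp*-/- livers 5 members were higher on MCD as well, where 50.3% of all genes tested passed and 26% rose. *Cyp2a5* was among them and *Cyp2b10* was not. *Cyp2a4* rose from 0.0289 ± 0.0501 to 116 ± 35.5 FPKM (log2 fold change 6.78, SE 0.36, limma adjusted p = 9.82e-08), the 3rd largest rise of all genes tested. *Cyp2a22* rose from 1.39 ± 0.850 to 159 ± 20.0 FPKM (6.12, SE 0.21), *Cyp2b9* from 6.51 ± 5.11 to 226 ± 34.7 FPKM (5.28, SE 0.51) and *Cyp2b13* from 0.275 ± 0.247 to 41.8 ± 10.6 FPKM (5.06, SE 0.18). *Cyp2a5* rose from 115 ± 12.2 to 312 ± 134 FPKM (1.35, SE 0.30, limma adjusted p = 0.00289).

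*Cyp2b10* was lower on MCD than on chow in *Pctp*-/- livers, at 24.0, 17.0 and 19.5 against 54.1, 33.6 and 40.2 FPKM. The diets did not overlap, but the log2 fold change of -1.03 (SE 0.43) missed the threshold (limma adjusted p = 0.0614). It passed in 4 of 22 alternatives, among them the fit of only the 6 libraries compared (adjusted p = 0.00373) and the fits without WT chow replicate 2 (0.0436), WT chow replicate 3 (0.0257) or WT MCD replicate 1 (0.0268). *Cyp2a12* was at 472 ± 52.0 on MCD and 386 ± 23.5 FPKM on chow (0.29, SE 0.12, limma adjusted p = 0.0747), and passed in 3 of 22 alternatives, quantile normalization (adjusted p = 0.0159), the replicate block (0.0415) and without WT chow replicate 1 (0.0469). All 7 members did not overlap between the diets in *Pctp*-/- livers, beside 59.7% of all genes tested, and their median log2 fold change was 5.06 beside 0.04. The median is again the value of *Cyp2b13*, and the filter partly sets these counts as in WT livers.

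The difference of the diet effects between the genotypes did not pass for any member, where 0.0963% of all genes tested did. It was largest for *Cyp2b10*, at -3.12 (SE 0.60, limma adjusted p = 0.0694), which had an unadjusted p of 2.27e-04 and the 3rd most negative value of all genes tested. All 3 WT livers on MCD were above all WT livers on chow, and all 3 *Pctp*-/- livers on MCD below all *Pctp*-/- livers on chow. The diets did not overlap for 63.7% of all genes tested in WT and 59.7% in *Pctp*-/- livers. The difference passed without WT chow replicate 3 (-3.60, limma adjusted p = 0.0461) or without WT MCD replicate 1 (-3.59, limma adjusted p = 0.0275) and in none of the other 19 alternatives. For *Cyp2a5* the difference was 1.24 (SE 0.43, limma adjusted p = 0.202), the other with an unadjusted p under 0.05. It lay between -0.59 and 1.02 for the remaining 5. These contrasts share libraries with the comparisons within a diet and within a genotype.

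The make-up of the Cyp2b transcripts differed between the genotypes on MCD, while the sums overlapped. The sum of the 3 Cyp2b genes was 45.6 ± 29.3 FPKM in WT and 49.4 ± 15.4 in *Pctp*-/- livers on chow, and 338 ± 104 and 288 ± 44.5 FPKM on MCD (SD, n = 3). On MCD the sums were at 219 to 404 FPKM in WT and 262 to 339 in *Pctp*-/- livers. *Cyp2b10* made up 95.7 to 97.7% of the sum in WT livers on chow and 82.8 to 97.5% in *Pctp*-/- livers on chow. On MCD its share was 39.9 to 60.4% in WT and 5.74 to 9.12% in *Pctp*-/- livers. *Cyp2b9* was the main Cyp2b transcript in *Pctp*-/- livers on MCD, with 78.2 to 79.0%, beside 33.7 to 50.5% in WT. *Cyp2b13* held 12.7 to 15.8% and 5.85 to 9.63%. Within the pair of *Cyp2b9* and *Cyp2b13*, the share of *Cyp2b13* overlapped on MCD, at 14.8 to 16.8% in WT and 14.0 to 16.8% in *Pctp*-/- livers.

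The Cyp2a sum was 607 ± 132 FPKM in WT and 502 ± 32.5 in *Pctp*-/- livers on chow, and 759 ± 24.1 and 1059 ± 220 FPKM on MCD. All *Pctp*-/- livers on MCD (856 to 1293 FPKM) were above the WT livers on MCD (731 to 777 FPKM). *Cyp2a4* went from at most 0.0950% of the *Cyp2a4* and *Cyp2a5* sum on chow to 16.6 to 37.2% in WT and 20.7 to 35.1% in *Pctp*-/- livers on MCD. *Cyp2a22* went from at most 0.584% of the *Cyp2a12* and *Cyp2a22* sum to 18.5 to 22.5% and 24.8 to 25.5%. The pair sum of *Cyp2a4* and *Cyp2a5* was 223 to 359 FPKM in WT and 279 to 581 FPKM in *Pctp*-/- livers on MCD, which overlapped. That of *Cyp2a12* and *Cyp2a22* was 417 to 508 against 577 to 713 FPKM, and that of *Cyp2b9* and *Cyp2b13* 131 to 167 against 239 to 320 FPKM, and neither overlapped. No test was made of the sums.

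**Figure D4:**
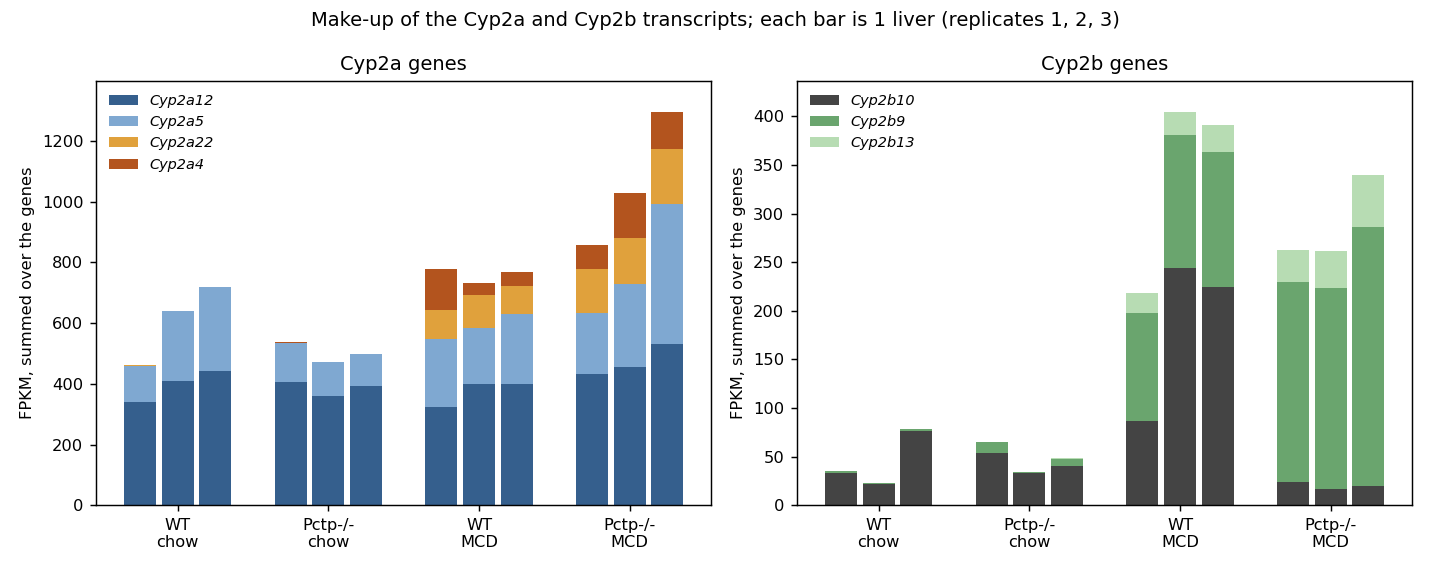
FPKM of the Cyp2a (left) and Cyp2b (right) genes stacked for each of the 12 livers, replicates 1 to 3 from left to right in each group. *Cyp2b10* (dark) makes up nearly all Cyp2b transcript on chow, 39.9 to 60.4% of it in WT on MCD and 5.74 to 9.12% in *Pctp*-/- livers on MCD.

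The genes of CAR and PXR did not pass between the genotypes. *Nr1i3* was at 37.6, 51.7 and 43.9 FPKM in WT and 47.0, 58.6 and 68.5 FPKM in *Pctp*-/- livers on MCD (log2 fold change 0.37, limma adjusted p = 0.394). *Nr1i2* was at 24.9, 30.7 and 26.7 against 21.4, 28.4 and 22.9 FPKM (-0.18, limma adjusted p = 0.672). Of 13 receptors and partner factors, 0 passed between the genotypes on either diet, with 2 at an unadjusted p under 0.05 on chow and 0 on MCD, and a median log2 fold change of 0.02 on MCD. With the diet 8 of 13 passed in WT (1 higher, 7 lower) and 8 of 13 in *Pctp*-/- livers (2 higher, 6 lower), beside 57% and 50.3% of all genes tested. *Cebpa*, which encodes a liver factor that binds C/EBP motifs, fell with the diet, at log2 fold changes of -2.04 in WT and -1.48 in *Pctp*-/- livers. *Foxa1* and *Foxa3*, forkhead factors of the liver, fell by 1.96 and 1.32 in WT and by 1.04 and 1.39 in *Pctp*-/- livers, where the *Foxa1* call was lost without *Pctp*-/- chow replicate 2 or MCD replicate 2.

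Among 27 other targets of CAR or PXR, 8 fell and 0 rose in *Pctp*-/- livers on MCD, where 0.818% of all genes tested passed. None passed on chow. The median log2 fold change of the list on MCD was -0.47, beside -0.09 over all genes. The 8 were *Cyp2c55* (-1.51) and *Cyp3a11* (-0.87), 2 further P450 genes, the glutathione transferases *Gsta1* (-2.84), *Gstm1* (-0.79), *Gstm2* (-0.96) and *Gstm3* (-1.37), the epoxide hydrolase *Ephx1* (-0.90) and the aldehyde dehydrogenase *Aldh1a7* (-0.59). *Cyp2c55* was at 6.97, 9.37 and 8.51 FPKM in WT and at 3.47, 1.97 and 1.57 FPKM in *Pctp*-/- livers. It was at 1.61 to 2.45 FPKM in the 6 chow livers. The difference of its diet effects, -1.61, passed (limma adjusted p = 0.0488), but in only 6 of 20 alternatives, and was lost without WT chow replicate 2 or 3, WT MCD replicate 2, any 1 *Pctp*-/- chow library or *Pctp*-/- MCD replicate 2 or 3 (adjusted p up to 0.171). With the diet, 12 of the 27 rose and 9 fell in WT, and 9 rose and 8 fell in *Pctp*-/- livers. The share of all genes tested that passed was 57% and 50.3%. *Abcc3*, an export pump, fell by 2.07 and 2.35 and the carboxylesterase *Ces2a* by 2.41 and 3.11, while *Gadd45b*, a stress-induced gene, rose by 2.86 and 1.69. Over the alternatives, 1 to 8 of the 27 passed for the knockout on MCD. *Cyp3a11* passed in all 22, *Cyp2c55* in 20 of 21 and *Gstm2* in 21 of 22, both lost only in the fit of the 6 libraries compared. *Gstm3* passed in 18, *Ephx1* in 17, *Gstm1* in 15, *Aldh1a7* in 12 and *Gsta1* in 5 of 22. All of these were lost in the fit of the 6 libraries compared, and all but *Gstm3* with median-of-ratios scaling. The calls of *Gstm3*, *Ephx1*, *Gstm1* and *Aldh1a7* were each lost without WT MCD replicate 2 or *Pctp*-/- MCD replicate 2. Those of *Ephx1*, *Gstm1* and *Aldh1a7* were also lost without WT MCD replicate 1, that of *Gstm1* without *Pctp*-/- MCD replicate 1, those of *Gstm3* and *Aldh1a7* without *Pctp*-/- MCD replicate 3, and that of *Aldh1a7* without WT chow replicate 2, WT MCD replicate 3 or *Pctp*-/- chow replicate 3. The call of *Gsta1* was lost without any 1 library other than WT MCD replicate 3. *Cyp3a11*, *Gsta1* and the *Gstm* genes, like the *Cyp3a41a*, *Sult3a1* and *Mup3* named further on, have near-identical relatives, so their values are uncertain.

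**Figure D5:**
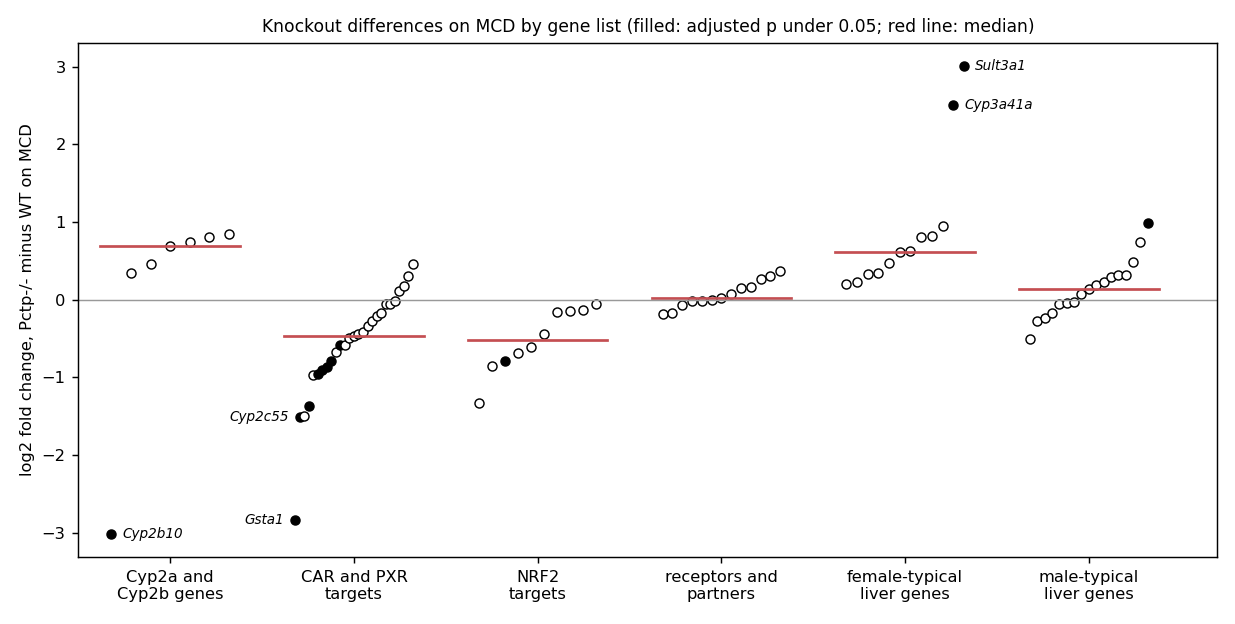
Log2 fold change between *Pctp*-/- and WT livers on MCD for the 7 members and the tested genes of 5 lists, each point a gene, sorted within its list, with the median as a red line. *Cyp2b10* lies far below the other 6 members; 8 of 27 CAR and PXR targets are filled (passed) and all 8 are below 0, while the 2 filled female-typical genes, *Sult3a1* and *Cyp3a41a*, are above.

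Several of these genes are also glutathione transferases under the control of NRF2, the oxidative stress factor. Of 10 NRF2 targets tested (12 listed), *Gstm1* passed for the knockout on MCD (0 to 2 of the 10 over the alternatives) and the median log2 fold change was -0.52, beside -0.09 over all genes. *Srxn1*, sulfiredoxin, was at -1.33 (limma adjusted p = 0.0552) and *Osgin1* at -0.85 (0.122), while *Nqo1*, a quinone reductase, was at -0.15 (0.775). With the diet 6 of the 10 rose and 1 fell in WT, and 4 rose and 2 fell in *Pctp*-/- livers. Of all genes tested, 57% and 50.3% passed in these comparisons.

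P450 enzymes need electrons from the reductase *Por* and heme, whose synthesis starts with *Alas1*. *Por* was at 60.0 to 105 FPKM in *Pctp*-/- and 81.5 to 135 FPKM in WT livers on MCD (log2 fold change -0.34, limma adjusted p = 0.480). Of 13 electron and heme partners, 0 passed between the genotypes on either diet, with 3 at an unadjusted p under 0.05 on MCD and 0 on chow, and a median of -0.20 on MCD. On MCD, *Alas1* fell by 2.03 in WT and by 1.55 in *Pctp*-/- livers, and *Hmox1*, the heme-degrading oxygenase, rose by 1.83 and 1.15. The *Alas1* call in *Pctp*-/- livers was lost without chow replicate 2 or 3 or MCD replicate 1 or 3 of that genotype. With the diet, 2 of the 13 were higher and 5 lower in WT, and 2 higher and 8 lower in *Pctp*-/- livers. Over all genes tested, 57% passed in WT and 50.3% in *Pctp*-/- livers.

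The 4 female-predominant members rose on MCD together with other genes of female liver. Of 12 tested female-typical genes (17 listed), 11 rose in WT and 11 in *Pctp*-/- livers, with medians of 2.24 and 3.60 on the log2 scale, beside 0.11 and 0.04 over all genes. *Cyp2c40* did not pass in either. Of all genes tested, 34.5% and 26% rose. Under 0.5 FPKM in every chow liver were *Atp6v0d2*, *Cyp3a41a*, *Cyp3a41b*, *Cyp3a44*, *Hao2*, *Slc22a26*, *Slc22a27* and *Sult3a1*. MCD values alone brought these to the minimum for testing, so the counts and medians are partly set by the filter. *Cux2*, *Sult2a1*, *Sult2a2*, *Cyp2c69* and *Prom1* did not reach it. *Cyp3a44*, a P450 gene, rose by 6.24 in WT and by 6.57 in *Pctp*-/- livers, and *Slc22a27*, a transporter gene, by 4.14 and 4.32. For the knockout on MCD, where 0.818% of all genes tested passed, 2 of the 12 did, both higher. They were *Sult3a1*, a sulfotransferase, at 0.700, 7.98 and 8.13 against 35.5, 34.1 and 55.9 FPKM (3.01), and *Cyp3a41a* (2.51). *Cyp3a41a* passed for the knockout in all 22 alternatives and *Sult3a1* in 17, without passing when *Pctp*-/- MCD replicate 2 or 3 was left out. *Cyp3a41a* was listed at 0 in every chow liver, so its difference of the diet effects equals its knockout difference on MCD (2.51). It is not a separate result. The difference of the diet effects passed (limma adjusted p = 0.0144), in 18 of 21 alternatives. It did not pass with a pseudocount of 0.1, or without WT chow replicate 2 or *Pctp*-/- MCD replicate 2 (adjusted p up to 0.0622). The median of the 12 for the knockout on MCD was 0.62. On chow, 0 of 12 passed, with 1 at an unadjusted p under 0.05.

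Male-typical genes went the other way with the diet. Of 17 tested (18 listed), 16 fell in each genotype, with medians of -2.19 and -2.10. Over all 12466 genes tested, 2810 fell in WT and 3040 in *Pctp*-/- livers. *Serpina4-ps1* fell by 6.95 in WT and by 6.24 in *Pctp*-/- livers, *Mup3*, a major urinary protein gene, fell by 4.66 and 3.67, and *Elovl3*, a fatty acid elongase, fell by 3.64 and 4.48. *Mup3* was the only one of the 17 to pass for the knockout, at 191 to 286 FPKM in WT and 469 to 507 FPKM in *Pctp*-/- livers on MCD (0.99, higher), and the median of the 17 was 0.14. It passed in 18 of 22 alternatives, and not without *Pctp*-/- MCD replicate 2 or 3.

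Of 12 genes of growth hormone signaling, 1 passed for the knockout on each diet, with medians of 0.04 on chow and 0.19 on MCD. Of all genes tested, 0.136% passed on chow and 0.818% on MCD. *Bcl6*, a repressor of STAT5 target genes that overlaps a small gene on the opposite strand, was at 3.15 to 5.54 FPKM in WT and 13.7 to 24.4 FPKM in *Pctp*-/- livers on chow (1.87, limma adjusted p = 0.00536), where *Cyp2b9* was higher in 2 of 3 livers. On MCD it was at 3.49 to 5.90 and 3.06 to 4.43 FPKM. *Ghr*, the growth hormone receptor, was higher in *Pctp*-/- livers on MCD (0.42, limma adjusted p = 0.0334) and fell with the diet by 0.90 in WT and by 0.59 in *Pctp*-/- livers. The *Ghr* call for the knockout held in 10 of 22 alternatives and was lost without any 1 library other than WT chow replicate 1 and *Pctp*-/- chow replicate 1. That of *Bcl6* on chow held in 21 of 22. *Bcl6* passed for the difference of the diet effects (-2.16, limma adjusted p = 0.0399) and in 12 of 21 alternatives, but not without WT chow replicate 2, *Pctp*-/- chow replicate 3, WT MCD replicate 2 or *Pctp*-/- MCD replicate 2 or 3 (adjusted p up to 0.139). Without *Pctp*-/- MCD replicate 2, 0 genes of all tested passed for this difference, with 1364 at an unadjusted p under 0.05. With the diet, *Igfals* fell by 1.61 in WT and by 0.91 in *Pctp*-/- livers. *Onecut1* fell by 2.78 in WT livers, where its chow values were scattered (45.4, 23.6 and 4.72 FPKM). In *Pctp*-/- livers it did not pass (-1.12, limma adjusted p = 0.187).

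Of 6 other Cyp2 genes listed as neighbours of the cluster, 2 reached the minimum FPKM. *Cyp2f2*, a periportal P450, fell with the diet by 0.98 in WT and by 0.71 in *Pctp*-/- livers. *Cyp2g1*, best known from the olfactory mucosa, lies next to *Cyp2a5* and rose by 1.64 in *Pctp*-/- livers, with 1.39 FPKM on chow and 6.36 FPKM on MCD. In WT livers it was at 2.19 and 4.06 FPKM (0.67, limma adjusted p = 0.0572). The difference of its diet effects did not pass (0.97, limma adjusted p = 0.272).

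Pearson's r of log2(FPKM + 1) was 0.99 for *Cyp2a4* and *Cyp2a22*, 1.00 for *Cyp2a22* and *Cyp2b13*, 0.98 for *Cyp2b9* and *Cyp2b13* and 0.95 for *Cyp2a4* and *Cyp2b9*. The livers of a diet form separate clusters for these genes, so no p is given. In deviations from the group means, r was 0.70 for *Cyp2a22* and *Cyp2b9*, 0.65 for *Cyp2b9* and *Cyp2b13* and 0.63 for *Cyp2a22* and *Cyp2b13*, but -0.06 to -0.12 between *Cyp2a4* and these 3. *Cyp2b10* had r of -0.34 to 0.17 with the other members over the 12 livers, and -0.66 with *Cyp2a4* in deviations. *Cyp2a5* and *Cyp2a12* had r of 0.74 in deviations.

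The genes most like each member over the 12 livers were *Atp6v0d2* for *Cyp2a4* (r = 1.00), *Sult2a6* for *Cyp2b13* (1.00) followed by *1810053B23Rik*, *1810053B23Rik* for *Cyp2a22* (1.00), and *Akr1d1*, the steroid reductase, for *Cyp2b9* (0.99). *Cyp2b10* was most like *Psmc4* (0.90), *Eif3i* (0.90) and *Dnaja3* (0.90). *Cyp2a5* was most like *Osbpl1a* (0.92) and *Cyp2a12* like *Agt*, angiotensinogen (0.92). In deviations from the group means the closest for 6 of the members were *Nek2* for *Cyp2a4* (0.96), *Wee1* for *Cyp2a5* (0.93), *Gm28086* for *Cyp2a22* (0.95), *Fpr1* for *Cyp2b9* (0.94), *Rps12-ps9* for *Cyp2b10* (0.94) and *Ndfip1* for *Cyp2b13* (0.91). These correlations are over 12 libraries and are given as a description.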

How the data were processed

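Expression was deposited by the authors as FPKM for each gene in each library, from sequencing by Novogene, beside a second table of read totals, mapping shares and quality measures, whose values the authors deposited as whole reads and percent. The labels name the genome build mm10; the aligner, counting tool, annotation and strand setting are not given in the sources used here. No fragment count per gene was used, so the Wald test of the study was not run. No column was left unmapped to a library.

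Genes with a mean of at least 0.5 FPKM over the 12 libraries (12466 of 35275; 12879 were at 0 in every library) were tested with limma version 3.58.1 in R version 4.3.3. The model was fitted to log2(FPKM + 1) with a mean for each of the 4 groups and a mean-variance trend. Benjamini-Hochberg adjustment covered all genes tested and the threshold was 0.05 with no minimum fold change. Fold changes are on this scale. Groups came from the sample titles. All 66 pairs of libraries differed, with 0% equal values. Symbols and positions were read from GENCODE M21 (GRCm38, the assembly behind mm10) for 34490 identifiers, and promoter windows from RefSeq (GRCm38.p6), aligned with Biopython version 1.88. All 7 members matched both. The fit was tested on simulated data.

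The members and gene lists were chosen with earlier results of these data known, among them the values of *Cyp2b10* and of several listed genes, so a list's counts are not independent evidence. From each list, genes were named that passed in a knockout comparison or in the difference of the diet effects, or that had the 2 largest absolute diet changes, with *Nr1i3*, *Nr1i2* and *Por*, and other names were chosen after their values were seen. The alternatives were pseudocounts of 0.1 and 0.5, other filters, quantile and median-of-ratios scaling, a replicate block, a fit of only the libraries compared, no trend, a robust fit and leaving out each library. Results for some genes are not reported here, and 1 of them was taken out of the female-typical list. Figures were drawn with matplotlib.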

Additional observations from a re-analysis of the deposited data

Results flagged for a closer look

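The estimated change of *Cyp2b10* with the MCD diet was 2.09 in WT and -1.03 in *Pctp*-/- livers, a difference of -3.12 on the log2 scale (SE 0.60). The rise in WT livers passed, but the fall in *Pctp*-/- livers did not (limma adjusted p = 0.0614). Every WT liver on MCD was higher than every WT liver on chow, and every *Pctp*-/- liver on MCD was lower than every *Pctp*-/- liver on chow. Such a gap between the diets is common here, found for 63.7% of all genes tested in WT and 59.7% in *Pctp*-/- livers. The test of the difference itself missed the threshold (limma adjusted p = 0.0694, with a range of 0.0275 to 0.198 over 21 alternatives).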

How the results depend on the processing

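Of the results of the 7 members, taken singly, under the alternatives, 739 kept their direction and their side of the threshold, 12 newly passed, none was lost and 10 turned direction. For the knockout on chow, leaving out single libraries gave -0.14 to 0.050 for *Cyp2a12* (turned without WT chow replicate 3, and at 0.018 without *Pctp*-/- chow replicate 2), -0.19 to 0.32 for *Cyp2a22* (turned without *Pctp*-/- chow replicate 3, and at -0.026 without WT chow replicate 1) and -0.28 to 0.59 for *Cyp2b10* (turned without WT chow replicate 2, and at -0.077 without *Pctp*-/- chow replicate 1). For the diet in WT it gave -0.24 to 0.35 for *Cyp2a5* (turned without WT chow replicate 1, and at -0.030 with median-of-ratios scaling) and -0.19 to 0.016 for *Cyp2a12* (turned without WT MCD replicate 1). The difference of the diet effects for *Cyp2b13* was -0.70 with a pseudocount of 0.1. The cause was not tested. The number of members that passed ranged from 0 to 1 for the knockout on chow, from 1 to 2 on MCD and from 0 to 1 for the difference of the diet effects when single libraries were left out, and was 2 on MCD with quantile normalization. The mean Cyp2a sum in WT livers on MCD was 702 FPKM with median-of-ratios scaling in place of 759. That scaling moved the median log2 fold change of all genes for the diet in WT from 0.11 to 0.00. Among listed genes, at least 1 alternative lost the call for 10 of 12 called for the knockout on MCD, the 1 called on chow and all 3 called for the difference of the diet effects, and for 13 of 98 and 18 of 91 called for the diet in WT and *Pctp*-/- livers. For the knockout on MCD, 1 to 8 CAR and PXR targets, 1 to 3 female-typical genes, 0 to 2 NRF2 targets and 0 to 1 male-typical genes passed over the alternatives. With a replicate block, *Cyp2b10* kept its call for the knockout on MCD (-3.02, limma adjusted p = 0.0132), and *Cyp2a12* passed for the diet in *Pctp*-/- livers (0.29, adjusted p = 0.0415). The shared replicate numbers name different mice: the correlation of their deviations from the group means was -0.10 to 0.22, over 0.1 in 8 of 18 pairs, so the libraries were not treated as paired. With FPKM values, counting error per gene cannot be given.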

Other observations

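WT replicate 1 on MCD differed from the other WT livers on that diet in several of these genes, all chosen after their values were seen. *Cyp2b10* was at 87.2 FPKM in it and at 244 and 224 FPKM in replicates 2 and 3. The CAR targets *Cyp2c29* (240 against 941 and 1072 FPKM) and *Cyp2c37* (66.4 against 293 and 287 FPKM) were low in the same liver. *Cyp2c29* was at 187 to 249 FPKM in the 3 *Pctp*-/- livers on MCD. *Gsta1* went the other way, at 108 against 34.3 and 11.7 FPKM, as did *Cyp2a4*, at 134 against 37.9 and 46.5 FPKM, while *Sult3a1* was low (0.700 against 7.98 and 8.13 FPKM). Some macrophage, stellate cell and oxidative stress genes were also high in this liver, though not all genes of these lists. *Cd68* was at 43.1 against 16.5 and 17.9 FPKM, *Gpnmb* at 69.9 against 14.2 and 16.5 FPKM, *Col3a1* at 17.0 against 6.96 and 5.80 FPKM and *Srxn1* at 126 against 57.7 and 41.0 FPKM. Their part in its other differences was not tested. *Cyp2a22*, *Cyp2b9* and *Cyp2b13* showed no such gap, at 93.8 against 110 and 90.5 FPKM, 110 against 136 and 139 FPKM, and 21.1 against 23.6 and 28.2 FPKM.

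On chow, *Cyp2b9* and *Cyp2b13* were higher in the same *Pctp*-/- livers, replicates 1 and 3. *Cyp2b13* was at 0.344 and 0.479 FPKM there, listed at 0 in replicate 2, and at 0.0224 FPKM or 0 in WT livers. *Cyp2b9* was at 10.8 and 7.89 FPKM in these livers and at 0.854 FPKM in replicate 2. *A1bg*, a female-typical gene, was at 1.01 and 1.40 FPKM in replicates 1 and 3 and at 0.334 FPKM in replicate 2. *Cyp2a4* did not follow, at 0.0868 FPKM in replicate 1 and listed at 0 in replicates 2 and 3.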
